A study of Pinellia ternata with 6 samples.

Results

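The unigenes described here were listed with transcripts in every sample of the octoploid T2 line of Pinellia ternata and at 0 in every sample of its chromosome-doubled derivative, T2Plus line. A unigene was a member when its isoform values, summed, were at least 5 FPKM in each of the 3 T2 samples and exactly 0 in each of the 3 T2Plus samples. The rule found 129 members among the 62591 unigenes of the table, or 0.206%. The same values chose the members, so their levels are given as a description, with no test.

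RNA-seq was run on seedlings, also described as cluster plantlets, collected 30 days after planting. There were 3 samples from T2 line, an octoploid (8x) with 104 chromosomes in a somatic cell, and 3 from the 16x T2Plus line with 208. T2 line goes back to 1 selected plant that was multiplied in tissue culture, and T2Plus line was raised from it with colchicine, so T2 line stands for a single genotype. Whether T2Plus line goes back to 1 treated cell or plant is not told. The sources state that 5 seedlings per group were mixed before grinding. Whether every replicate came from a separate mix is not told, and part of the spread between replicates may be technical.

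Pinellia ternata is a medicinal herb of the arum family whose dried tuber is used in Chinese medicine. Colchicine stops the mitotic spindle, so that a dividing cell keeps both sets of separated chromosomes. The doubled plant starts with the gene set of its parent in a higher copy number, and copies can later be silenced, rearranged or lost. Without a genome, reads were joined into transcripts by de novo assembly. A Trinity name such as TRINITY_DN31422_c0_g3 holds a cluster of reads (DN31422), a connected component (c0), a unigene within it (g3) and, after these, an isoform number. The prefix TRINITY_ is left out below. A unigene can be a whole gene, a fragment of one, or 1 of several similar copies, and unigenes of 1 component share stretches of sequence, so that reads from near-identical copies can be divided among them. Unigenes of the same DN and c number are called sisters here, and those that share the DN number alone are called relatives.

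Levels are in FPKM, for which the reads of a transcript are divided by its length and by the size of the library. On whole-series facts, between 28177 and 33997 unigenes were above 0 in a sample. Best matches were read from the part of the study's annotation table used here, which held 3 of the members. The shares below therefore cover the unigenes in that part alone, and not all chloroplast or foreign transcripts of a sample. The 27 unigenes in it with a chloroplast protein as best match took 0.745 to 0.882% of a T2 sample's total FPKM. In a T2Plus sample they took 0.558 to 0.673%. The 43 unigenes in it whose best match was no green plant took 0.151 to 0.165% in each of the samples. Their part in the results below was not tested.

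The members were a small share of the expressed unigenes. In T2 line, 8769 unigenes reached 5 FPKM in all 3 samples. Of these, 8328 were above 0 in every T2Plus sample, 196 were at 0 in 1 of them, 116 in 2 and 129, the members, in all 3, which is 1.47%. In the opposite direction, 265 of the 9461 unigenes that reached this level in all 3 T2Plus samples, or 2.80%, were at 0 in all 3 T2 samples. Zeros also arose between replicates of 1 line. Of the unigenes with at least 5 FPKM in both other T2 samples, 4.05% were at 0 in replicate 1, 6.0% in replicate 2 and 4.06% in replicate 3. Within T2Plus line the same shares were 4.33%, 5.41% and 5.75%. Single zeros at this level were thus found without any change of line.

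The mean level of the members in T2 line ran from 5.27 to 880 FPKM with a median of 13.6 FPKM. Of the 129 members, 47 had a mean under 10 FPKM, 45 from 10 to under 20, 26 from 20 to under 50 and 11 of 50 or more. The members made up 3.49% of the expressed unigenes of the lowest of these classes, 1.80% and 0.925% of the middle ones and 0.520% of the highest. Together they held 0.514%, 0.636% and 0.571% of the summed FPKM of T2 replicates 1, 2 and 3.

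**Figure D1:**
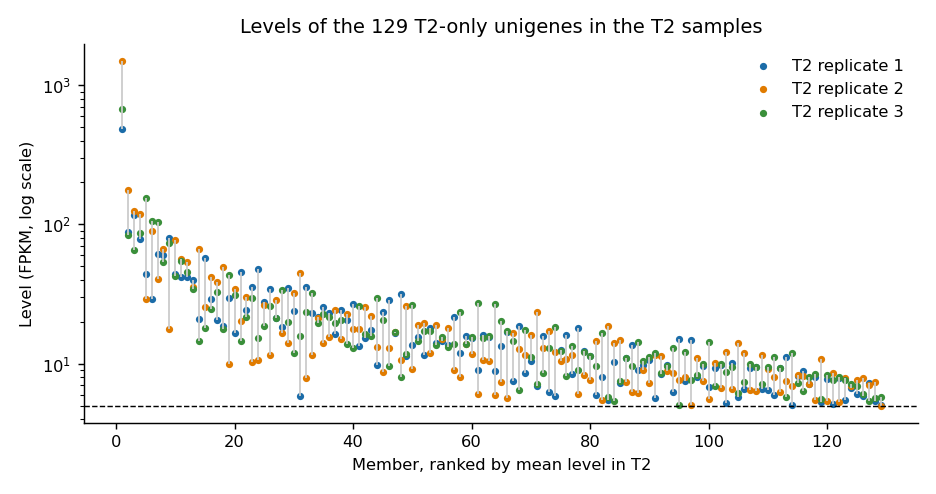
Level in FPKM, on a log scale, of the 129 members in each of the 3 T2 samples, ranked by their mean; points are samples, grey lines join the lowest and the highest, and the dashed line marks the 5 FPKM of the rule. DN6518_c0_g4 stands alone at 880 FPKM, and 11 members have a mean of 50 FPKM or more.

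The highest member, DN6518_c0_g4, was listed at 482 FPKM in T2 replicate 1, 1485 FPKM in replicate 2 and 672 FPKM in replicate 3. It alone held 16.6%, 37.3% and 20.8% of the summed FPKM of the members in these samples. Replicate 2 was more than 2-fold above both other samples. Its component held another member, DN6518_c0_g2, at 35.0, 14.0 and 19.8 FPKM. In that unigene replicate 2 was the lowest, so the 2 members of the component did not follow each other across the T2 samples. A relative, DN6518_c1_g1, was kept, with 6.46, 3.92 and 5.18 FPKM in the T2 samples against 4.38, 3.66 and 4.14 FPKM in T2Plus.

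Next by level came DN21866_c0_g2, with 87.5, 176 and 84.2 FPKM in T2 replicates 1, 2 and 3, and DN8343_c1_g1, with 116, 124 and 65.1 FPKM. DN389_c6_g1, which the study's tables list under cofactor catabolic process, the breakdown of the helper molecules of enzymes, had 78.0, 118 and 86.7 FPKM. In these members every T2 sample was above 60 FPKM. DN27278_c0_g1, by contrast, had 43.9, 29.1 and 155 FPKM, and DN2053_c2_g1 had 29.0, 90.3 and 106 FPKM. In both, the highest T2 sample was over 3 times the lowest.

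Of the remaining 9 among the 15 highest members, DN4418_c1_g1 had 61.1, 40.4 and 105 FPKM and DN11881_c1_g1 had 60.5, 66.5 and 53.5 FPKM. DN14872_c0_g1 had 79.6, 17.7 and 73.3 FPKM, with replicate 2 far below the other samples. DN5948_c0_g5 had 44.3, 77.4 and 42.9 FPKM, DN22895_c0_g1 had 42.1, 56.4 and 54.7 FPKM, and DN534_c0_g1 had 42.0, 53.5 and 45.7 FPKM. The last was among the steadier of the high members. DN7027_c0_g2 had 39.9, 35.7 and 34.5 FPKM, DN44936_c1_g1 had 21.0, 66.5 and 14.4 FPKM, and DN42540_c1_g2 had 56.9, 25.3 and 18 FPKM. No sample was the highest throughout, and over all members replicate 1 was the highest for 38, replicate 2 for 48 and replicate 3 for 43.

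The spread between T2 samples differed widely among members. The coefficient of variation, the SD over the 3 T2 samples as a percentage of their mean, had a median of 30.9% and ran from 0.853% to 91.4%, and in 57 members the highest T2 sample was at least 2-fold the lowest. The steadiest were DN722_c10_g1 with 16.7, 16.9 and 16.9 FPKM, DN37414_c0_g1 with 14.6, 15 and 15.6 FPKM, and DN66879_c0_g1 with 6.66, 6.94 and 7.16 FPKM. The least steady were DN161302_c0_g1 with 5.87, 45.1 and 15.9 FPKM, DN27278_c0_g1 (90.4%) and DN44936_c1_g1 (83.5%). Among unigenes with a mean of 50 FPKM or more the members had a median coefficient of variation of 44.9% and the other expressed unigenes 15.9%. From 20 to under 50 FPKM the medians were 43.4% and 17.2%, from 10 to under 20 they were 34.2% and 22.1%, and under 10 FPKM they were 21.8% and 19.6%. The gap was thus widest among the highly listed members.

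The number of reads behind each level could be estimated, since the deposited values fall on steps. Between 69.4% and 75.1% of the values above 0 in a sample were shared exactly by 8 or more isoforms, as whole reads on transcripts of equal length would give. The worth of 1 read, in FPKM, is larger the shorter the transcript, and it was followed from sample to sample along these repeated values. In T2 replicate 1 the values of 1 read formed a ladder, in which 219 steps from 2.24 to 43.9 FPKM were followed. The ratio between samples changed with transcript length: at a worth of 5 FPKM in T2 replicate 1, a read in T2 replicate 3 was worth 1.05 times as much, and at 20 FPKM 0.945 times. Equal values from 1 read and from 2 reads on a longer transcript can therefore be told apart. For each member with 1 isoform above 0, the smallest whole numbers of reads that fitted its 3 T2 values were taken. They were counted as resolved where they fitted within 0.2% (0.4% above 20 FPKM a read) and few such fits were to be had by accident, which held for 81 members. The other 43 were not resolved. Where numbers fitted within 1.5% at a read worth of 2.2 FPKM or more, the smallest are lower limits, given as at least. Where none did, a second fit was used, open to smaller worths, among values that several isoforms shared. It passed over numbers whose worth of 1 read was not such a value. Its results are given as estimated and are not strict limits. The 5 members with 2 isoforms above 0 were not estimated. From somewhat below 20 FPKM a read upward no match to the steps was asked for. Above 20 FPKM the ratio between samples was extended through pairs of repeated values. Read numbers found in either way are less certain.

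Many members rested on few reads. Of the 124 members with an estimate, 51 (41.1%) held a single read in at least 1 T2 sample, 18 held 2 as the fewest, and 55 held 3 or more in every T2 sample. In 10 members every T2 sample held a single read, and with transcripts this short 1 read was listed at 5.31 to 23.3 FPKM. The highest of these levels was that of DN200958_c0_g1, at 23.3, 15.5 and 21.7 FPKM. The T2 samples of 47 members held 3 to 6 reads in all, and the median over the 124 members was 9 reads. Among the 81 resolved members, the worth of 1 read in T2 replicate 1 had a median of 7.97 FPKM and ran from 2.64 to 61.1 FPKM. For 60 of them a single read in that sample already met the 5 FPKM of the rule.

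**Figure D2:**
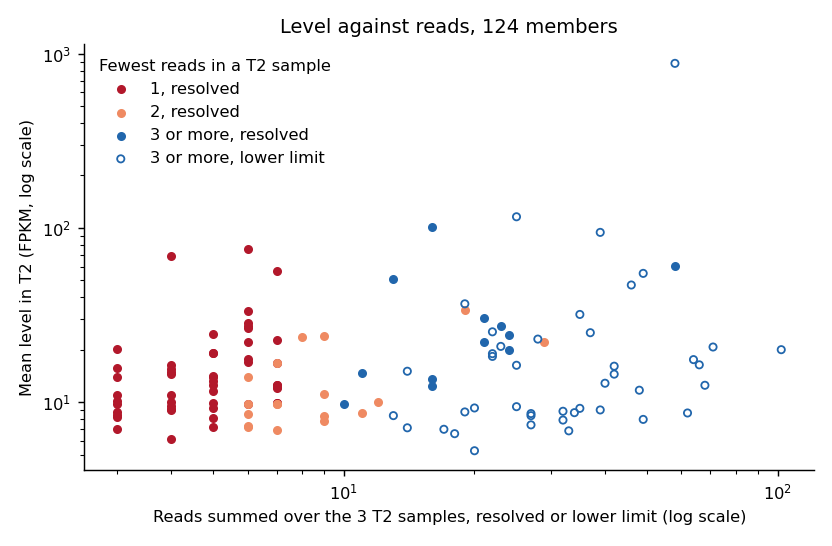
Mean level in T2 line in FPKM against the reads summed over the 3 T2 samples, both on log scales, for the 124 members with an estimate; colours give the fewest reads in a T2 sample, and open circles, labelled lower limit, are numbers that were not resolved. The 51 members with 1 read in a T2 sample (red) reach means of up to 75.9 FPKM, and DN6518_c0_g4 stands apart at the top.

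A high level did not mean many reads. DN4418_c1_g1, with a mean of 68.7 FPKM, rested on 1, 1 and 2 reads in T2 replicates 1, 2 and 3, and DN27278_c0_g1, with a mean of 75.9 FPKM, on 1, 1 and 4. DN14872_c0_g1 rested on 3, 1 and 3 reads, so that the low value of its replicate 2 was a single read. DN42540_c1_g2 rested on 3, 2 and 1 reads, DN22895_c0_g1 on 3, 6 and 4, DN44936_c1_g1 on 3, 14 and 2 and DN8343_c1_g1 on 5, 8 and 3. These 7 were all among the 15 highest members. In T2 replicate 1 a read was worth 61.1 FPKM for DN4418_c1_g1, beyond the steps followed, and 43.9 FPKM for DN27278_c0_g1. It was worth 26.5 FPKM for DN14872_c0_g1, 23.3 FPKM for DN8343_c1_g1 and 19 FPKM for DN42540_c1_g2. The reads of these members were found without a match to the steps and are less certain. At the other end, DN11881_c1_g1 held 17, 27 and 14 reads, DN24355_c0_g3 an estimated 25, 50 and 27 and DN534_c0_g1 at least 12, 22 and 12. For DN6518_c0_g4 the lower limits were 8, 37 and 13 reads. Members with few reads varied more between T2 samples. The median coefficient of variation was 42% with 1 or 2 reads as the fewest and 23.9% with 3 or more.

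The share of unigenes at 0 in the other line was lower the more reads they had. Among unigenes that met the T2 level of the rule with 1 isoform above 0, 51 of 206 (24.8%) were at 0 in all T2Plus samples when a T2 sample held a single read. With 2 reads as the fewest, 18 of 156 (11.5%) were. Of the other 7526, with 3 or more reads or with numbers not resolved, 55 (0.731%) were. In the opposite direction the shares were 30.6% of 317, 18.1% of 138 and 1.73% of 8047. The worth of 1 read differed between libraries, so their sensitivity did too. For a transcript with 1 read at 5 FPKM in T2 replicate 1, a read was worth 0.684 times that in T2 replicate 2, 1.05 times in T2 replicate 3, and 0.840, 1.06 and 1.10 times in T2Plus replicates 1, 2 and 3. T2 replicate 2 thus resolved the lowest levels. For members on 1 or 2 reads, absence from T2Plus line and a level too low to be drawn cannot be told apart at this depth.

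**Figure D3:**
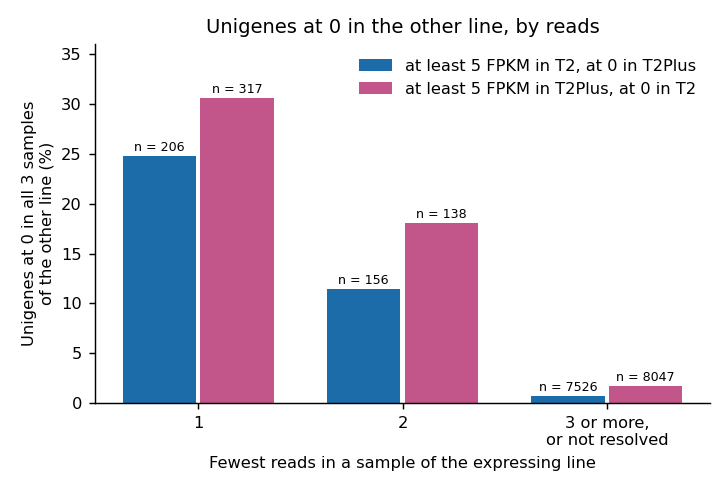
Share, in percent, of unigenes at 0 in all 3 samples of the other line, by the fewest reads in a sample of the line that expressed them; n is the number of unigenes behind each bar. For T2 line the share is 24.8% with 1 read and 0.731% in the last class, and for T2Plus line 30.6% and 1.73%.

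For 13 members the reads were estimated at 10 or more in every T2 sample. For 12 of them the numbers were not resolved, so some may hold fewer, and other members may hold as many. Their mean levels ran from 7.97 to 60.2 FPKM with a median of 16.4 FPKM, and their coefficients of variation from 7.56% to 51.2% with a median of 21.6%. In 3 of them the highest T2 sample was at least 2-fold the lowest. Besides those named above they included DN10022_c2_g1 with 25.5, 14.2 and 22.6 FPKM (at least 28, 21 and 22 reads), DN11171_c3_g2 with 10.5, 15.9 and 11.1 FPKM (at least 17, 35 and 16 reads), DN36832_c0_g1 with 23.4, 8.71 and 20.6 FPKM (at least 28, 14 and 22 reads) and DN40247_c0_g1 with 10.1, 6.54 and 9.39 FPKM (at least 23, 20 and 19 reads), which were chosen from these 13 after their values were seen. All were listed at 0 in all 3 T2Plus samples. Deposited read counts were not used here, and no fold change is given against these zeros.

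At the edge of the rule, the 3 members closest to the 5 FPKM were DN20138_c0_g1 with 5.07, 5.0 and 5.73 FPKM, DN178727_c0_g1 with 14.8, 5.03 and 7.60 FPKM and DN64254_c0_g1 with 15.2, 7.62 and 5.03 FPKM. Just outside, DN25270_c0_g1 had 7.54, 4.98 and 7.92 FPKM, DN93662_c0_g1 had 4.97, 17.0 and 10.5 FPKM and DN76559_c0_g1 had 7.31, 4.95 and 7.50 FPKM in T2 line, all with 0 in T2Plus line. Just outside the zero in T2Plus line lay DN2509_c0_g2, with 34.2, 15.8 and 35.5 FPKM in T2 line against 0.0950, 0 and 0.0380 FPKM in T2Plus line. DN7921_c0_g2 had 30.0, 28.7 and 32.7 FPKM in T2 line but still 0.153 FPKM in 1 T2Plus sample, and DN27440_c0_g1 had 7.47, 7.74 and 8.11 FPKM and 0.143 FPKM. These 3 were nearly as one-sided as the members.

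Few members had a listed sister that stayed expressed. Of the 19 members numbered g2 or higher, 9 had no other unigene of the component listed, so sisters may be missing from the values analysed. Another unigene of the component was listed for 8.53% of the members, against 11.7% of all unigenes that met the T2 level of the rule. The 129 members fell into 128 components, and 7 members had a sister above 0 in any sample, 9 sisters in all. In 4 components, a sister was at 1 FPKM or more in every T2Plus sample, so that 4 members (3.10%) had an expressed sister, against 9.29% of all unigenes that met the T2 level of the rule. A relative at this level, in another component of the same DN number, was found for 12 members (9.3%), against 14.5%. None of these shares was compared at like numbers of reads, and many members rested on few. No component and no DN number held both a member and a unigene with the reverse pattern. The sisters were not used by the rule and were tested with limma on log2(FPKM + 1) across the 28536 unigenes with at least 1 FPKM in 3 samples. A change of at least 2-fold with a p of at most 0.05 after Benjamini-Hochberg adjustment was called. Of the 9 sisters 1 was called higher in T2Plus line and 2 lower, where 7.22% of all unigenes tested were higher and 6.3% lower.

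**Figure D4:**
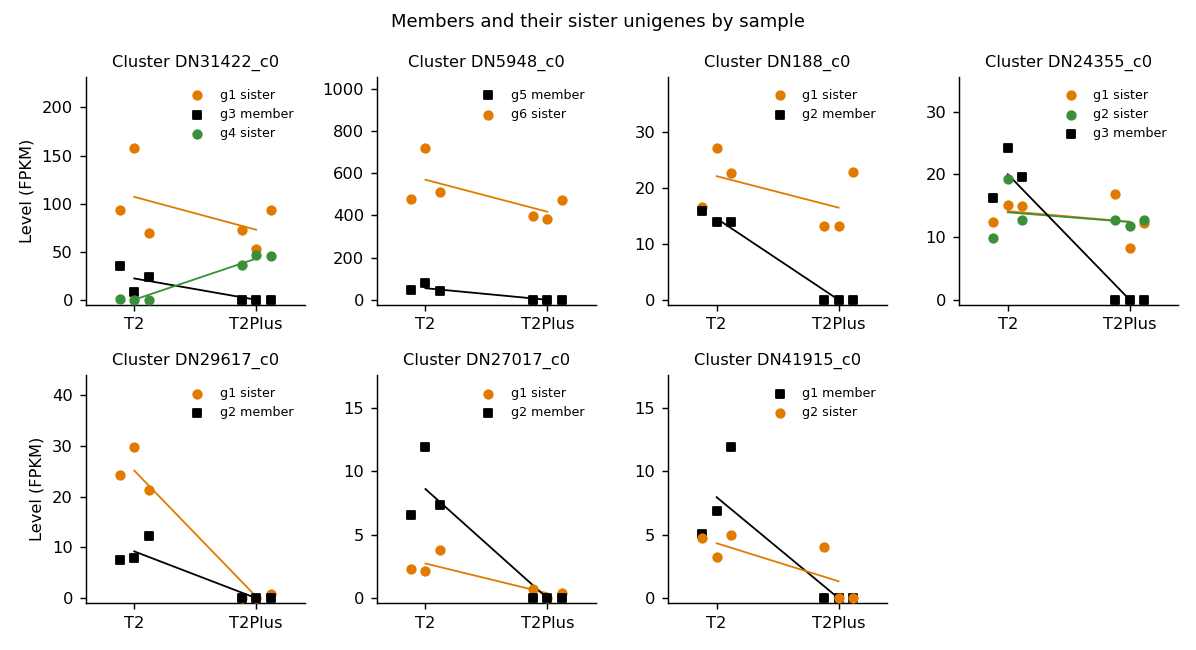
Level in FPKM, on a linear scale, of members (black squares) and their sisters (orange and green circles) in the 7 components that hold both; points are the 3 samples of each line and lines join the means. In DN31422_c0 the sister g4 is near 0 in T2 line and between 36.2 and 47.0 FPKM in T2Plus line, while the member g3 goes the other way.

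In component DN31422_c0 a member and a sister were listed in opposite lines. The member DN31422_c0_g3 had 35.4, 7.93 and 23.3 FPKM in T2 line, resting on 3, 1 and 2 reads, and was at 0 in T2Plus line. Its sister DN31422_c0_g4 had 0.304, 0 and 0 FPKM in T2 line against 36.2, 47.0 and 45.3 FPKM in T2Plus line. The groups of the sister did not overlap, and it was higher in T2Plus line by 5.32 ± 0.25 (SE, n = 3 per line) on the log2(FPKM + 1) scale, with an adjusted p of 1.85e-04 by limma. The other sister, DN31422_c0_g1, had 93.7, 158 and 69.8 FPKM in T2 line against 73.1, 52.4 and 93.1 FPKM in T2Plus line. Its groups overlapped (log2 change of -0.50 ± 0.34, adjusted p = 0.390 by limma). Summed over the component, the levels were 129, 165 and 93.1 FPKM in T2 line against 109, 99.4 and 138 FPKM in T2Plus line, which also overlap. With so few reads, absence of the member from T2Plus line and a level too low to be drawn cannot be told apart. Reads may also pass between such similar unigenes, and the split within the component is less certain than its sum.

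In 3 components the member was at 0 in T2Plus line while its sisters were listed there at a level within 1.5-fold of T2 line, on the log2(FPKM + 1) scale. DN5948_c0_g6, a sister of DN5948_c0_g5, was among the strongly expressed unigenes, with 476, 718 and 513 FPKM in T2 line against 397, 385 and 471 FPKM in T2Plus line. The groups did not overlap, but the log2 change of -0.43 ± 0.18 (SE, n = 3 per line) gave an adjusted p of 0.162 by limma. The member was far below its sister in T2 line, with 44.3, 77.4 and 42.9 FPKM. Summed over DN5948_c0, the levels were 521, 796 and 556 FPKM in T2 line against 397, 385 and 471 FPKM in T2Plus line, without overlap. DN188_c0_g1 had 16.5, 27.0 and 22.7 FPKM in T2 line against 13.2, 13.2 and 22.8 FPKM in T2Plus line (log2 change of -0.42 ± 0.28, adjusted p = 0.388 by limma), beside the member DN188_c0_g2 with 15.8, 13.9 and 13.8 FPKM. This member rested on an estimated 14, 17 and 11 reads. The sum of DN188_c0 fell from 32.2, 40.9 and 36.5 FPKM to 13.2, 13.2 and 22.8 FPKM, and the samples of the lines did not overlap. Both sums include the zeros of the rule.

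Component DN24355_c0 held 3 unigenes of similar level in T2 line. The member DN24355_c0_g3 had 16.3, 24.2 and 19.6 FPKM and was at 0 in T2Plus line. DN24355_c0_g1 had 12.4, 15 and 15 FPKM in T2 line against 16.9, 8.21 and 12.3 FPKM in T2Plus line, and DN24355_c0_g2 had 9.90, 19.3 and 12.7 FPKM and 12.7, 11.7 and 12.8 FPKM. Both sisters overlapped between the lines, with log2 changes of -0.22 ± 0.27 and -0.11 ± 0.25 and adjusted p-values of 0.641 and 0.810 by limma. The member was thus the 1 unigene of the 3 that was missing.

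In the other 3 components the sister was at 0 in at least 1 T2Plus sample. DN29617_c0_g1, beside the member DN29617_c0_g2 (7.52, 7.98 and 12.2 FPKM), had 24.3, 29.9 and 21.3 FPKM in T2 line against 0, 0 and 0.901 FPKM in T2Plus line, and was lower in T2Plus line with a log2 change of -4.39 ± 0.36 (SE, n = 3 per line) and an adjusted p of 0.00112 by limma. DN27017_c0_g1 had 2.31, 2.12 and 3.77 FPKM in T2 line against 0.744, 0 and 0.412 FPKM in T2Plus line, beside the member DN27017_c0_g2 with 6.53, 12 and 7.35 FPKM. Its log2 change of -1.44 ± 0.38 had an adjusted p of 0.0459 by limma, and the call was kept under 2 of 14 alternatives, where the adjusted p ran from 0.0116 to 0.209. DN41915_c0_g2 had 4.74, 3.25 and 5.01 FPKM in T2 line against 4.0, 0 and 0 FPKM in T2Plus line (log2 change of -1.62 ± 0.70, adjusted p = 0.181 by limma), so its groups overlapped. For this sister, replicate 1 was the only T2Plus sample above 0. Leaving that sample out, which keeps only zeros in T2Plus line, called the sister lower (log2 change of -2.40, adjusted p = 0.0228 by limma). This was the 1 call among 14 alternatives. The member beside it, DN41915_c0_g1, had 5.08, 6.87 and 12 FPKM. Of the 7 members with a sister above 0, 6 had an estimate of at least 6 reads in every T2 sample, DN31422_c0_g3 being the exception.

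Among the relatives of the same DN number but another component, the widest change was in DN722_c1_g1. It had 545, 780 and 556 FPKM in T2 line against 19.6, 23.5 and 28.1 FPKM in T2Plus line, a log2 change of -4.66 ± 0.19 (SE, n = 3 per line) with an adjusted p of 1.18e-04 by limma. The member of this DN number, DN722_c10_g1, had the lowest spread of all members but rested on 2, 3 and 2 reads. DN722_c0_g1 had 15.9, 18.9 and 16.6 FPKM in T2 line against 28.2, 28.4 and 27.3 FPKM in T2Plus line (log2 change of 0.68 ± 0.13, adjusted p = 0.0142 by limma), a change of under 2-fold. It was called under none of 15 alternatives, where the adjusted p ran from 0.00594 to 0.0667. Relatives of DN389_c6_g1 also differed: DN389_c5_g1 was listed at 0 in T2 line and at 1.4, 1.07 and 1.77 FPKM in T2Plus line (log2 change of 1.26 ± 0.25, adjusted p = 0.0171 by limma), while DN389_c1_g3 had 32.8, 26.8 and 34.4 FPKM and 33.4, 33.9 and 34.2 FPKM. The second of these had overlapping groups and a log2 change of 0.11 ± 0.13.

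At the level of single isoforms the picture was nearly the same. Of 133 isoforms with at least 5 FPKM in every T2 sample and 0 in every T2Plus sample, 5 lay in unigenes that were no members. In 1 of these, DN34314_c0_g1, another isoform was at 1 FPKM or more in every T2Plus sample. Its isoform i7 had 5.64, 7.11 and 14.1 FPKM in T2 line, and the whole unigene had 18.4, 29.3 and 32.5 FPKM in T2 line against 4.67, 11.2 and 8.15 FPKM in T2Plus line. DN31918_c0_g1_i1 had 103, 30.8 and 65.3 FPKM in T2 line and was the highest of the 5, and its unigene was still listed at 1.82, 2.23 and 1.09 FPKM in T2Plus line.

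In the members with 2 isoforms above 0, 1 isoform led in most samples. DN2053_c2_g1_i2 had 29.0, 57.9 and 106 FPKM, while DN2053_c2_g1_i1 appeared in replicate 2 alone with 32.4 FPKM. DN3059_c2_g1_i1, DN36531_c0_g1_i1 and DN6518_c0_g2_i4 were the lower isoforms of their unigenes summed over the T2 samples, and the first of them appeared in replicate 2 alone with 2.98 FPKM. DN35007_c0_g1 changed isoform between samples, with i1 at 5.83 and 7.94 FPKM in replicates 1 and 2 and i7 at 6.08 FPKM in replicate 3. The unigene met the rule through the sum.

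Names were scarce. None of the members carried a Swiss-Prot name in the part of the study's annotation table used here, which held 3 of them. At least 9 were listed under a GO term or KEGG pathway. Many of the longer GO lists were cut short after 18 unigenes, so further members may stand in them. The terms come from the study's own analysis of these samples, so they are labels and not independent evidence. Of the 9, DN389_c6_g1 was described above and had at least 9, 20 and 10 reads. DN112531_c0_g1, listed under cutin, suberine and wax biosynthesis, the making of the waxy outer layer of plants, had 9.56, 7.57 and 9.96 FPKM from an estimated 13, 14 and 12 reads. DN24244_c0_g1, under defense response to fungus, had 11.6, 19.6 and 17.1 FPKM from an estimated 9, 21 and 12 reads. These were the 3 named members with an estimate of at least 9 reads in every T2 sample.

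DN73303_c0_g1 was listed under skotomorphogenesis, the growth form of seedlings in the dark, and under response to light intensity. It had 5.47, 7.92 and 7.59 FPKM from an estimated 4, 8 and 5 reads. DN20138_c0_g1, under response to gibberellin and response to ethylene, both growth hormones, rested on an estimated 6, 8 and 6 reads. DN29370_c0_g1, under pectin catabolic process, the breakdown of a cell wall polysaccharide, had 5.17, 8.62 and 7.60 FPKM from an estimated 3, 7 and 4 reads. All 3 lay near the 5 FPKM of the rule in their lowest sample.

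The other 3 named members rested on 1 or 2 reads in some T2 sample. DN260665_c0_g1, under carotenoid biosynthetic process, the making of yellow to red plastid pigments, had 13.5, 18.2 and 13.2 FPKM from 1, 2 and 1 reads. DN221506_c0_g1, under amino acid transport, had 5.40, 7.38 and 5.66 FPKM from 1, 2 and 1 reads. DN27590_c0_g2, under metal ion transport, had 7.96, 5.49 and 8.49 FPKM from 2, 2 and 2 reads. A pathway name on these 3 therefore stands on very few reads.

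The lists around the named members that were not cut short comprised 19 overlapping terms of 3 to 18 unigenes. Of the 96 unigenes listed, 65 were in the table analysed, so part of each longer list is missing from the counts. The lists held 7 members, whose direction the rule fixed and which are left out of the counts below. Of the 56 other tested unigenes, 18 were called higher and 32 lower in T2Plus line, where 7.22% and 6.3% of all unigenes tested were. The study placed unigenes in these lists because they differed between these samples, and these counts are no independent evidence. In cofactor catabolic process 9 of 16 listed unigenes were in the table, and beside the member 2 of 8 were called higher and 6 lower, with a median log2 change of -1.20 against 0.10 over all unigenes tested. In response to gibberellin, with 12 of 13 in the table, 2 of 11 others were higher and 9 lower. In response to light intensity, with 13 of 17 in the table, 1 of 12 others was higher and 9 were lower. In pectin catabolic process, with 5 of 8 in the table, 3 of 4 others were higher and 1 lower.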

How the data were processed

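RNA-seq of 30-day seedlings, 3 samples each of T2 line and T2Plus line, was analysed. The authors trimmed reads with Trimmomatic 0.36 (FastQC 0.11.5 is named in the submitters' processing notes), assembled them with Trinity, estimated abundance with RSEM and deposited TMM-scaled FPKM values per isoform. RSEM gives both FPKM and TPM, and which of them was scaled cannot be read from the values. For the aligner, the sources used here give no name. The 65535 isoforms analysed are not the whole assembly, and isoforms or sisters of a unigene may be missing from them.

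Isoforms were summed per unigene. For sisters and relatives, T2Plus line was set against T2 line by limma (3.58.1, R 4.3.3; two-sided, intensity trend) on log2(FPKM + 1), a scale that understates changes of low unigenes, over the 28536 unigenes reaching 1 FPKM in 3 or more of the 6 samples. Reads were estimated from the steps of the values, with a read worth 2.2 to 80 FPKM and up to 30 reads in the first sample. They were resolved where under 0.05 fits were expected by accident. Where nothing fitted in that range the second fit was used. Over all members the lowest worth of 1 read in T2 replicate 1 was 0.439 FPKM. Tables were handled in pandas 2.3.3 and numpy 2.4.6 under Python 3.11.15, and matplotlib 3.10.9 drew the plots. The limma fit and the read estimate were each run on simulated data. The simulated reads used the ratios, and mostly the steps, of the estimate itself, so errors in these were not tested.

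The members and lists were chosen with earlier results of these data known. Named members are those with a name in the study's tables, the 15 highest, the 3 lowest and 3 highest in coefficient of variation, the 3 nearest the threshold and those with 2 isoforms above 0. Named sisters are the highest of each of up to 12 components, and named non-members the 3 just outside each threshold. Exceptions are the other sisters, the relatives, the isoforms of other unigenes and members named for their reads, all chosen after their values were seen. Alternatives were other thresholds, pseudocounts of 0.1 and 0.5, filters, scalings, isoform handling, no trend, a replicate block and each sample left out.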

Additional observations from a re-analysis of the deposited data

How the results depend on the processing

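The number of members depended on the thresholds. It was 553 with at least 1 FPKM in every T2 sample, 361 with 2 and 54 with 10, against 129 with 5, and from 166 to 409 with 1 sample left out, since fewer conditions then apply. Restricted, after the data were seen, to members with enough estimated reads, it was 55 with at least 3 and 13 with at least 10 in every T2 sample, and 24 with at least 30 over the line. Members with an expressed sister were 4, but 16 by the DN number (12.4%, against 22.2% of all unigenes that met the T2 level). They were 7 with a sister above 0 in any T2Plus sample, 11 of 553 with a T2 threshold of 1, and 5 to 8 with a sample left out. The sister called higher, DN31422_c0_g4, was called under all 15 alternatives, and with relatives of the DN number included 2 unigenes were higher, the other being DN389_c5_g1. The sisters called lower were 2, or 3 by the DN number, and 1 with pseudocounts of 0.1 or 0.5, no filter, a mean of at least 5, the highest isoform or rescaled samples, and 1 to 2 with a sample left out; the cause was not tested. DN29617_c0_g1 was called throughout and DN27017_c0_g1 was the one lost. Without T2Plus replicate 1 it was lost too (adjusted p = 0.0711 by limma). DN41915_c0_g2, then left with only zeros in T2Plus line, was called in its place (adjusted p = 0.0228 by limma). DN389_c5_g1 was called in 10 of 14 alternatives. Over all unigenes 2061 were higher and 1799 lower in T2Plus line, with 1073 and 1142 without a filter, 753 and 1050 with a mean of at least 5, and 1463 to 1947 and 1270 to 1628 with a sample left out. Resolving reads with a tolerance 2 times as wide, an alternative added after the data were seen, gave shares at 0 in T2Plus line of 24.5% with a single read and 0.731% with 3 or more.

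The labels number the replicates 1 to 3 in both lines, but samples of the same number did not deviate together (correlations of 0.0366, -0.0327 and -0.0665 over the unigenes tested). The number was therefore not used as a pairing. With it as a block, 1169 unigenes were higher and 1146 lower, and 1 sister was higher and 1 lower.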
